A study of Mus musculus with 18 samples.

Results

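Loss of Htr3a was examined at postnatal day 2 (P2), the age at which interneurons of the caudal ganglionic eminence settle into the layers of the cortex. The comparison used 6 of the series' 18 arrays, chosen by age and genotype alone. The first group was 3 arrays of Htr3a-KO;GAD65-GFP mice, labelled as knockouts of Htr3a and carrying the GFP reporter, and the second was 3 arrays of GAD65-GFP control mice with the same reporter. Both groups therefore shared the transgene, which puts GFP under control of the gene for the GABA-synthesising enzyme GAD65. Each array held RNA of GFP-positive cells sorted by flow cytometry from a pool of at least 4 brains, and the 3 arrays of a group came from 3 litters. The other 12 arrays, 3 per genotype at E14.5 and 3 per genotype at E18.5, gave the same comparison before birth. The labels used here state neither the strain background, the deleted part of Htr3a, nor whether Htr3a-KO and control mice were littermates.

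Htr3a encodes a subunit of the 5-HT3 receptor, a cation channel opened directly by serotonin, unlike the other serotonin receptors, which act through G proteins. In the cortex it marks the interneuron class of the CGE, the caudal ganglionic eminence, among them the VIP and neurogliaform cells of the upper layers. These cells reach the cortex late, and serotonin acting on the channel is known to alter their migration and placement. The study's title names a second system, the secreted guidance cue semaphorin 3A and its plexin A4 receptor.

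At P2, 5 of 14292 genes differed between Htr3a-KO and control at an adjusted p under 0.05 (0.035%), 3 of them lower (0.021%) and 2 higher (0.014%). The lower genes were Htr3a itself, Pts and Dis3l, and the higher genes were Lars2 and H2-Aa. Htr3a, Pts, Dis3l and Lars2 lie on chromosome 9, and H2-Aa lies on chromosome 17. A further count, of genes at an unadjusted p under 0.05, gave 1083 (7.58%), 777 lower (5.44%) and 306 higher (2.14%). The 3 Htr3a-KO and 3 control arrays did not overlap for 1306 genes (9.14%), with Htr3a-KO lower for 827 (5.79%) and higher for 479 (3.35%). With only the 6 P2 arrays in the fit, 0 genes passed, and without control array 3 there were 21, which held all 5. The median difference over all genes was −0.04 on the log2 scale, with 59.9% of genes below 0, the middle 50% lay between −0.16 and 0.07, and the 95% confidence interval of a gene reached a median of 0.31 to either side.

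The promoter sequences of the called genes are shown because these are the genes on which the comparison turns. RefSeq's table for GRCm38.p6 matched 4 of the 5, and the 250 bases before each gene's start are given 5′ to 3′ on the gene's strand. Capitals mark matches on either strand to any of 4 short motifs. These are CCAAT, a box found in many promoters, GGGCGG, the GC box, TGACGTCA, the cyclic AMP response element, and TATAAA, the TATA box. Pts lies on the minus strand (chr9:50528657-50528906), as do Dis3l (chr9:64340774-64341023, the first of 2 starts listed) and H2-Aa (chr17:34287824-34288073), and Lars2 lies on the plus strand (chr9:123366677-123366926).
Pts: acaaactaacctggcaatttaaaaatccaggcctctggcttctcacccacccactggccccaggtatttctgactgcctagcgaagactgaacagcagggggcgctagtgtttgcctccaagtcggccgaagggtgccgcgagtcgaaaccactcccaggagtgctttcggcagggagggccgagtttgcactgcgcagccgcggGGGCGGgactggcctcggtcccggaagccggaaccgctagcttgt
Dis3l: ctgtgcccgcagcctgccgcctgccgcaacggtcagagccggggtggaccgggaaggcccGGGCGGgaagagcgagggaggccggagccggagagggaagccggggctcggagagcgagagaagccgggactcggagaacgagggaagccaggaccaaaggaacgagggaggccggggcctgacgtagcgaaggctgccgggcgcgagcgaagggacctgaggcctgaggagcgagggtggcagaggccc
Lars2: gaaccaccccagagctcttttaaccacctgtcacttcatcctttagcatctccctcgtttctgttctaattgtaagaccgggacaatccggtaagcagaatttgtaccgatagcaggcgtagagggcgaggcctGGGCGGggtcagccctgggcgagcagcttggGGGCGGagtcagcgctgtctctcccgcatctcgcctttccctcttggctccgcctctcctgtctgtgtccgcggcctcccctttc
H2-Aa: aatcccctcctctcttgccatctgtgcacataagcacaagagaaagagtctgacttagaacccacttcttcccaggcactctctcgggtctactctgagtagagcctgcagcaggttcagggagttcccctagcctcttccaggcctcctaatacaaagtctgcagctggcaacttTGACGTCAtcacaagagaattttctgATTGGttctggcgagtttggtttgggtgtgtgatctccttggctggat
The windows of Pts, Dis3l and Lars2 held the GC box, 1 in Pts, 1 in Dis3l and 2 in Lars2, and none of the other motifs. No window was matched for Htr3a, the other called gene on chromosome 9. The H2-Aa window held 1 cyclic AMP response element and 1 CCAAT box, read here as its reverse complement, and no GC box. Class II promoters are known for a conserved module in which such a pair of elements stands side by side. Over 32851 promoter windows of this length, 32.7% held GGGCGG, 33.9% CCAAT, 1.55% TGACGTCA and 12.4% TATAAA. CpG dinucleotides numbered 17 in Pts, 26 in Dis3l, 15 in Lars2 and 3 in H2-Aa, where the median window had 6.

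Htr3a, read by 1 probe set, measured 6.81, 7.01 and 6.71 in the Htr3a-KO arrays and 8.61, 8.64 and 9.11 in the control arrays (log2 intensity). The groups did not overlap, and the highest Htr3a-KO array lay well under the lowest control array. Htr3a fell by 1.94 (SE 0.26, 95% interval −2.49 to −1.39), a 3.85-fold difference (adjusted p = 0.0109, limma). In sorted pools, fewer cells of a type and less RNA per cell cannot be told apart. The difference was −0.75 at E14.5 (adjusted p = 0.708) and −3.51 at E18.5 (adjusted p = 7.66e-06), with the groups apart at each age. The control level itself was 1.55 lower at P2 than at E18.5. The P2 call was lost when Htr3a-KO array 3 was left out, where the difference was −1.88 (adjusted p = 0.121).

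Pts encodes 6-pyruvoyltetrahydropterin synthase, an enzyme on the route to tetrahydrobiopterin, the cofactor that the enzymes making serotonin and dopamine need. Its 3 Htr3a-KO arrays read 8.16, 8.15 and 8.07 and its control arrays 9.04, 9.12 and 8.80. The Htr3a-KO readings lay close together and under all control readings, with means of 8.13 ± 0.05 in Htr3a-KO and 8.99 ± 0.17 in control (SD, n = 3 arrays each). Pts fell by 0.86 (SE 0.10, 95% interval −1.07 to −0.65), or 1.81-fold, and had the smallest adjusted p of all genes (adjusted p = 0.00425, limma). It lies 1.62 Mb from Htr3a. Pts differed by −0.55 at E14.5 (adjusted p = 0.166) and fell by 0.66 at E18.5 (adjusted p = 0.039). Without Htr3a-KO array 3 the P2 difference was −0.83 and missed the threshold (adjusted p = 0.0538).

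Dis3l encodes an exoribonuclease of the cytoplasmic exosome, which degrades RNA from its 3′ end. It read 7.06, 6.94 and 7.11 in Htr3a-KO and 7.97, 7.99 and 7.62 in control, again without overlap. The means were 7.04 ± 0.09 in Htr3a-KO and 7.86 ± 0.21 in control, and Dis3l fell by 0.82 (SE 0.13), or 1.77-fold (adjusted p = 0.0307, limma). Dis3l lies 15.4 Mb from Htr3a. The difference was −0.67 at E14.5 and −0.68 at E18.5, where it did not pass (adjusted p = 0.173 and 0.0823) although the arrays were apart at both ages. The P2 call was lost when any 1 P2 array other than control array 3 was left out, with adjusted p = 0.0949 to 0.23 in those 5 fits. It was also lost with quantile normalization (0.0527) and a trended variance (0.053).

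Lars2, the mitochondrial leucyl-tRNA synthetase, charges leucine for protein synthesis inside mitochondria. It measured 8.26, 8.66 and 8.45 in Htr3a-KO and 7.51, 7.68 and 7.68 in control. Every Htr3a-KO array was above every control array, with means of 8.46 ± 0.20 in Htr3a-KO and 7.62 ± 0.10 in control. Lars2 rose by 0.83 (SE 0.13), or 1.78-fold (adjusted p = 0.0307, limma). It lies 74.5 Mb from Htr3a, near the far end of the tested genes of the chromosome, and it also rose at E14.5 (0.94, adjusted p = 0.0186) and E18.5 (1.29, adjusted p = 3.31e-04). Only 1 of its 3 probe sets carried the difference. The others gave 0.07 and −0.20, and the mean of the 3 gave 0.23 (adjusted p = 0.625). The call was also lost when Htr3a-KO array 2 or 3 or control array 1 or 2 was left out (adjusted p = 0.0949 to 0.181), and with a trended variance (0.053).

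H2-Aa encodes the alpha chain of an MHC class II molecule, which presents peptides on antigen-presenting cells such as macrophages. It was 6.09, 6.13 and 6.35 in Htr3a-KO and 5.42, 5.69 and 5.54 in control, with means of 6.19 ± 0.14 in Htr3a-KO and 5.55 ± 0.14 in control. The groups did not overlap, and H2-Aa rose by 0.64 (SE 0.10), or 1.56-fold (adjusted p = 0.0307, limma). At E14.5 and E18.5 its arrays overlapped, with differences of 0.01 and −0.08. The change in the genotype difference between E18.5 and P2, 0.72, did not pass (adjusted p = 0.644), nor did that between E14.5 and P2, 0.63 (adjusted p = 0.549). Its readings stood near the level of 5.255 under which the dimmest 30% of probe sets were left out, and the 3 other H2-Aa probe sets were under it, with overlapping arrays. The call was lost when Htr3a-KO array 2 or 3 or control array 1 was left out (adjusted p = 0.0577 to 0.174), and with quantile normalization (0.0628).

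Other genes of the class II pathway, picked after the H2-Aa value was seen, did not pass. H2-Ab1, the partner beta chain, differed by 0.34 (adjusted p = 0.608), the beta chain H2-Eb1 by 0.17 and the invariant chain Cd74 by 0.01. Ciita, the master activator of class II genes, differed by 0.08. The class I chains H2-K1 and H2-D1, also on chromosome 17, differed by 0.92 (adjusted p = 0.592) and 0.72 (adjusted p = 0.676). H2-K1 read 9.75, 10.24 and 10.34 in Htr3a-KO and 9.60, 9.17 and 8.79 in control, without overlap. Its difference was 1.52 at E14.5 and 1.80 at E18.5, neither of which passed (adjusted p = 0.278 and 0.0738).

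**Figure D1:**
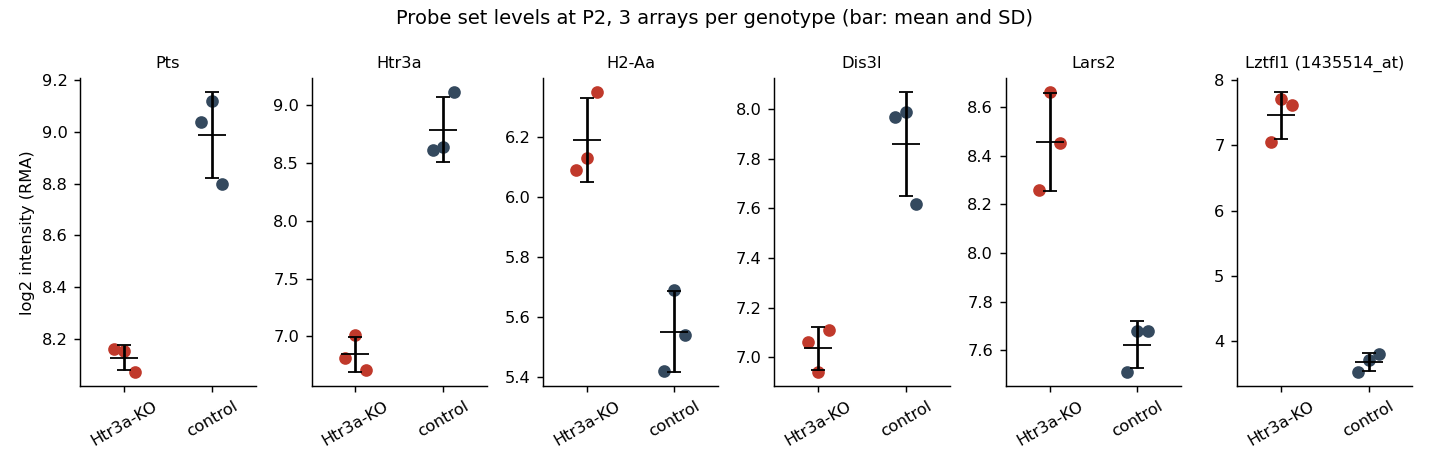
Log2 intensity of the 5 genes that passed at P2 and of 1 Lztfl1 probe set, for each of the 3 Htr3a-KO arrays (red, left) and 3 control arrays (dark, right) on vertical axes that differ between panels and do not start at 0, with the mean and SD in black. In no panel do the groups overlap, and the Lztfl1 probe set reads 7.05 to 7.70 in Htr3a-KO and 3.53 to 3.80 in control.

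The 5 genes were set against the earlier ages, which used other arrays and litters. Pts, Htr3a and Dis3l were lower, and Lars2 higher, in every Htr3a-KO array than in every control array at E14.5 and at E18.5 too. Pts, Htr3a and Lars2 passed at E18.5, where 3 genes passed in all (0.021%), and Lars2 was among the 2 genes that passed at E14.5 (0.014%). H2-Aa had no such difference before birth. In the test of the change itself, 0 genes passed for P2 against E18.5 (limma; 1033 genes, 7.23%, at an unadjusted p under 0.05) and 0 passed for P2 against E14.5 (900 genes, 6.3%). The second count was 12 without E14.5 control array 3, 2 without E14.5 Htr3a-KO array 3 and 2 without P2 control array 3.

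**Figure D2:**
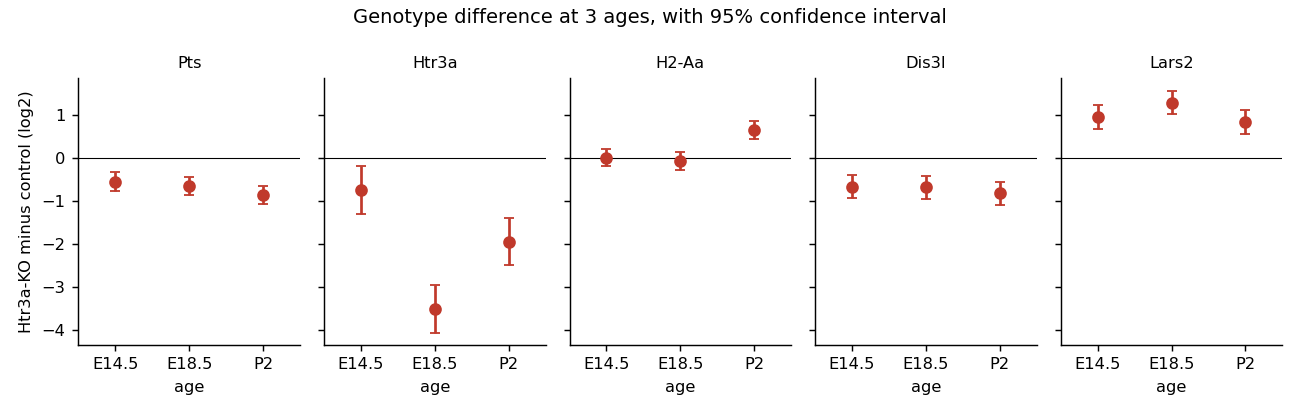
Htr3a-KO minus control on the log2 scale at E14.5, E18.5 and P2 for the 5 genes that passed at P2, as points with 95% confidence intervals from limma (3 arrays per genotype and age). Pts, Dis3l and Lars2 keep 1 sign with intervals that exclude 0 at each age, Htr3a is furthest below 0 at E18.5 (−3.51), and H2-Aa leaves 0 at P2 alone.

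Among the genes whose change between ages had the smallest p, all short of the threshold, H2-Aa, Usp2 and Zfp946 came first against E18.5. Usp2, a deubiquitinating enzyme whose gene lies 4.83 Mb from Htr3a, differed by −0.88 at E18.5 and 0.42 at P2, a change of 1.30 (adjusted p = 0.644). Against E14.5 the first 3 were Mmp2, Col19a1 and Pf4. Mmp2, a secreted protease of the extracellular matrix, differed by 0.79 at E14.5 and −0.40 at P2 (adjusted p = 0.549). Col19a1, a collagen chain, differed by 1.10 at E14.5 and −0.22 at P2, and Pf4, a chemokine of platelets and of macrophages at brain borders, by 1.05 and −1.92 (adjusted p = 0.549 for each).

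Genes near Htr3a on chromosome 9 were called more often than those elsewhere, as a description. Within 20 Mb of Htr3a 3 of 291 genes passed (1.03%), Htr3a itself among them, on the rest of chromosome 9 it was 1 of 509 (0.197%), and on the other chromosomes 1 of 13404 (0.00746%). At an unadjusted p under 0.05 the same regions held 14.1%, 9.04% and 7.38% of their genes. Near Htr3a 27 of these genes were lower and 14 higher. On the rest of the chromosome 23 were lower and 23 higher, and on the other chromosomes 725 and 264. The lean to lower genes near Htr3a was therefore not particular to that region. The share with groups that did not overlap was 13.1% within 20 Mb, 13.2% on the rest of the chromosome and 8.86% elsewhere. The labels used here do not give the strain of origin of the DNA around the targeted gene.

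**Figure D3:**
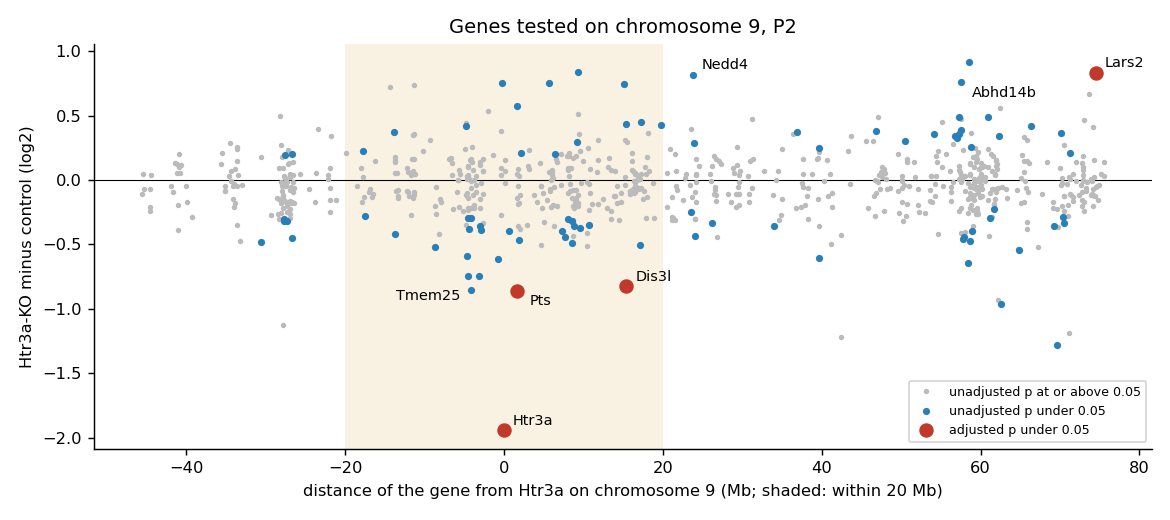
Htr3a-KO minus control at P2 (log2, vertical axis) of the 800 tested genes on chromosome 9 against their distance from Htr3a in Mb (horizontal axis), with the 20 Mb to either side shaded. Red points passed, blue points had an unadjusted p under 0.05, and Htr3a, Pts and Dis3l are the red points in the shaded part, while Lars2 stands alone at 74.5 Mb.

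A gene was represented above by its brightest probe set. With each of 26104 probe sets tested on its own, 9 passed (0.0345%), 4 higher and 5 lower, and 6 of the 9 were on chromosome 9, which held 5.46% of the probe sets. They took in the 5 genes above and 1 dimmer probe set each of Lztfl1, Bace1, Ppp1cb and Adhfe1, genes named here after their values were seen. The largest difference was in Lztfl1, a regulator of protein traffic into cilia, 74.8 Mb from Htr3a. Its probe set 1435514_at read 7.05, 7.70 and 7.61 in Htr3a-KO and 3.53, 3.72 and 3.80 in control, a difference of 3.77 (SE 0.18; adjusted p = 1.97e-08, limma). All control readings lay below the level of the intensity filter, so the fold is set by dim readings. The 4 other Lztfl1 probe sets did not pass and differed by −0.16, 0.65, 0.80 and −0.01. Those at 0.65 and 0.80 were higher in every Htr3a-KO array than in every control array. The probe set at 0.80, whose P2 control readings also lay below the filter level, differed by 1.15 at E14.5 and 1.04 at E18.5. Probe set 1435514_at differed by 4.28 at E14.5 and 4.79 at E18.5.

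Bace1, the beta-secretase that cleaves the amyloid precursor and neuregulin 1, fell by 0.97 at 1 of 4 probe sets (adjusted p = 0.0333). That probe set read 6.64, 7.29 and 6.80 in Htr3a-KO and 7.93, 7.85 and 7.86 in control, and the other 3 differed by −0.17, −0.08 and 0.14. Bace1 lies 3.06 Mb from Htr3a. On other chromosomes, Ppp1cb, a catalytic subunit of protein phosphatase 1, fell by 1.25 at 1 of 4 probe sets (adjusted p = 0.0215). Adhfe1, a mitochondrial transhydrogenase, rose by 0.78 at 1 probe set (adjusted p = 0.0333), and its next probe set differed by 0.51 (adjusted p = 0.70). For Bace1, Ppp1cb and Lars2 the called probe set therefore stood apart from most others of its gene. For Lztfl1 it had by far the largest difference, but not the only rise.

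Below the threshold, the 12 lower genes with the smallest p began with Tmem25 and Mid1. Tmem25, a transmembrane protein gene 4.11 Mb from Htr3a, read 7.06, 7.39 and 7.09 in Htr3a-KO and 8.03, 7.98 and 8.08 in control, a difference of −0.85 (adjusted p = 0.0694, limma). Its other probe set differed by 0.09. Mid1, a ubiquitin ligase that binds microtubules, is on the X chromosome and read 7.79, 7.44 and 7.55 in Htr3a-KO and 9.08, 9.36 and 9.54 in control (−1.73, adjusted p = 0.119). Mid1 also differed by −0.96 at E14.5 and −0.79 at E18.5. The Y-linked gene Eif2s3y read 9.38, 9.35 and 9.78 in Htr3a-KO and 8.82, 9.13 and 8.81 in control at P2, without overlap. Xist, a marker of female cells, read 10.86, 12.51 and 12.23 in Htr3a-KO and 12.29, 12.13 and 12.62 in control. The part of the pools' sex make-up in the Mid1 difference was not tested.

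Pik3cg, the phosphoinositide 3-kinase subunit of white blood cells, differed by −0.82 (adjusted p = 0.166), Sh3bp2, an adaptor protein of immune cells, by −0.80 and Pf4 by −1.92. The rest were the zinc finger gene Zfp946 (−0.52), the mitochondrial carrier Slc25a29 (−0.56), Cep164 of the ciliary base (−0.74), the carbonyl reductase Cbr2 (−0.62), Insm1, a transcription factor of neural progenitors (−1.17), the nuclear import receptor Tnpo3 (−0.45) and the methyltransferase Hemk1 (−0.65). Cep164 lies 3.13 Mb from Htr3a and Hemk1 58.4 Mb, both on chromosome 9. Slc25a29 was the tightest of them, at 9.22, 9.23 and 9.22 in Htr3a-KO and 9.75, 9.86 and 9.74 in control. With the mean of each gene's probe sets the differences were smaller for Slc25a29 (−0.32), Cep164 (−0.33) and Tmem25 (−0.38), and among the higher genes given next for Il1rap (0.26) and Ucp3 (0.20).

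The 12 higher genes with the smallest p, none past the threshold, were led by Abhd14b, an alpha/beta hydrolase gene on chromosome 9. It read 7.04, 7.46 and 7.16 in Htr3a-KO and 6.47, 6.24 and 6.67 in control (0.76, adjusted p = 0.141, limma). Notum, a secreted enzyme that inactivates Wnt proteins, differed by 0.62 (adjusted p = 0.231) and Lef1, a transcription factor of the Wnt pathway, by 0.56. On chromosome 9 were also Nedd4, a ubiquitin ligase (0.82), Wdr82, a subunit of histone methyltransferase complexes (0.36), and Stt3b, which attaches sugar chains to proteins (0.42). Nedd4 read 12.93, 12.97 and 13.03 in Htr3a-KO and 11.92, 12.30 and 12.26 in control, apart by more than the spread of either group, but the mean of the Nedd4 probe sets differed by 0.32. The others were the myelin protein gene Pllp (0.78), Vstm4 (0.56), Tmem121 (1.64), the transcription factor Klf15 (0.78), the interleukin 1 receptor partner Il1rap (0.66) and the mitochondrial carrier Ucp3 (0.36). Tmem121 had the largest difference of these and the widest spread, at 8.81, 7.0 and 7.87 in Htr3a-KO and 5.61, 6.90 and 6.26 in control, and differed by 0.85 without Htr3a-KO array 1 and control array 1.

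**Figure D4:**
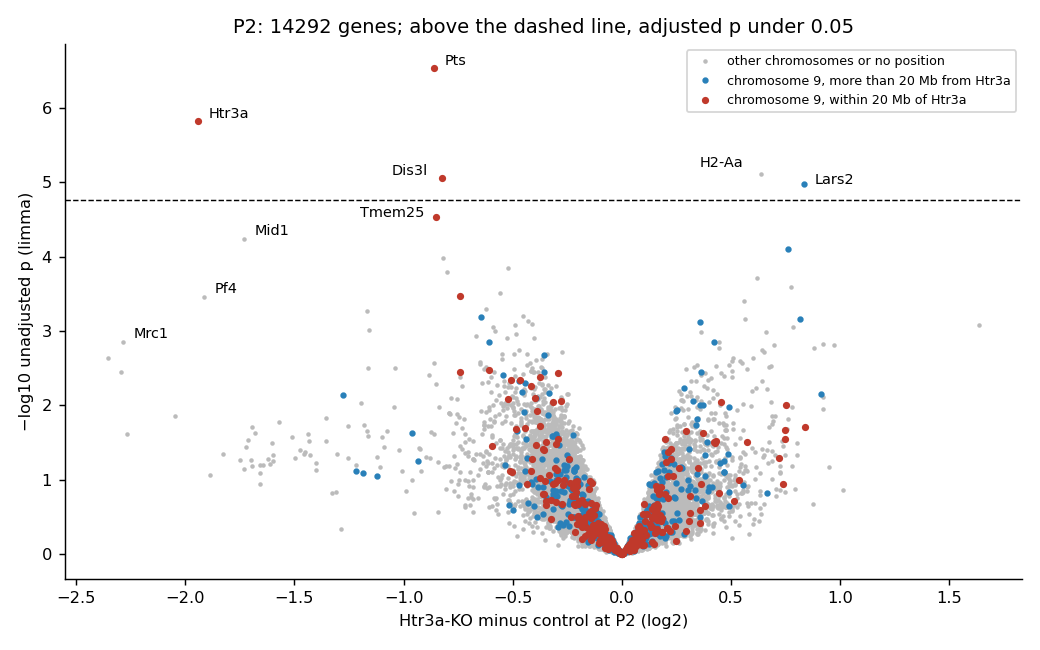
Htr3a-KO minus control at P2 (log2, horizontal axis) against −log10 of the unadjusted limma p (vertical axis) for 14292 genes, with chromosome 9 genes in red (within 20 Mb of Htr3a) and blue (farther away) and all other genes in grey. The 5 genes above the dashed line passed, 3 of them red, and the widely spread grey points on the left include Mrc1 at −2.29 and Pf4 at −1.92.

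The genes of the study's title did not pass at P2. Plxna4, the receptor subunit for semaphorin 3A, read 9.49, 9.82 and 9.70 in Htr3a-KO and 9.82, 9.77 and 9.84 in control. Its difference was −0.14 (SE 0.25, 95% interval −0.68 to 0.40, adjusted p = 0.926). Sema3a read 7.06, 8.16 and 7.86 in Htr3a-KO and 8.56, 7.66 and 8.05 in control, a difference of −0.40 (95% interval −0.93 to 0.13, adjusted p = 0.714). The arrays overlapped for both, and the intervals leave room for changes of either sign for both genes. Nrp1, the co-receptor that binds semaphorin 3A, differed by −0.20 (95% interval −0.83 to 0.43), and Nrp2, the co-receptor for semaphorin 3F, by −0.06 (−0.64 to 0.52). With the intensity filter taken over the 6 P2 arrays another probe set stood for Nrp2 and gave −0.43, and the mean of its probe sets gave −0.27, neither past the threshold.

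Of the 29 semaphorin, plexin and neuropilin genes measured, 0 passed in limma (0.035% of all genes), 21 were below 0 and 8 above, against 59.9% of all genes below 0. In each direction 2 had an unadjusted p under 0.05, where all genes gave 5.44% lower and 2.14% higher. Their median was −0.14, against −0.04 over all genes. The cues with the smallest p were Sema4f, a membrane semaphorin (−0.52, adjusted p = 0.568), Sema3f, a secreted one (0.25, adjusted p = 0.594), and Sema6a, a membrane cue that also acts as a receptor (0.47). Sema3f, on chromosome 9 and 58.8 Mb from Htr3a, read 10.12, 10.18 and 10.14 in Htr3a-KO and 9.80, 9.91 and 9.97 in control, without overlap. Among receptors Plxnb3 had the smallest p (−0.62, adjusted p = 0.652), with overlapping arrays. Of 21 signalling partners of these receptors 0 passed, and their median was −0.003. Lower at an unadjusted p under 0.05 (5.44% of all genes) were 2 of them. These were Crmp1, a mediator of semaphorin signals on the cytoskeleton (−0.35), and Cdk5r1, the activator of the kinase Cdk5 (−0.44).

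Serotonin genes other than Htr3a did not pass. Of the 7 measured, 5 were above 0 and 2 below, against 59.9% of all genes below 0, and their median was 0.06. Slc6a4, the serotonin transporter, read 5.67, 5.86 and 5.66 in Htr3a-KO and 6.42, 6.14 and 5.93 in control (−0.43, adjusted p = 0.52, limma). Maoa, which breaks serotonin down, read 10.07, 10.11 and 10.06 in Htr3a-KO and 9.69, 9.85 and 9.94 in control (0.25, adjusted p = 0.657). The groups were apart for both genes. The receptors Htr1a, Htr1b, Htr5a and Htr7 differed by 0.04 to 0.10, and the second monoamine oxidase Maob by −0.11.

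The GABA-synthesising enzymes are encoded by Gad1 and Gad2. Gad2 is the gene for GAD65, which controlled the GFP by which cells of both genotypes were sorted. Its level is therefore not independent of the sort. Gad1 read 11.79, 11.19 and 11.68 in Htr3a-KO and 11.38, 11.72 and 11.63 in control (−0.02, SE 0.30), and Gad2 differed by −0.32 (SE 0.44). Both overlapped. Of 7 genes of GABA synthesis and transport 0 passed, and the smallest p was that of Slc6a11, a GABA transporter of astrocytes (0.69, adjusted p = 0.604). Of 14 CGE transcription factors 0 passed and 10 were below 0 (59.9% of all genes), with a median of −0.23. Nr2f1 (0.32), Dlx2 (−0.57), Sp8 (−0.69) and Satb1 (−0.26) had the smallest p, and all overlapped.

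Of 18 CGE subclass markers Htr3a alone passed, 9 were on each side of 0, and the median was 0.003. Vip, the peptide of a CGE subclass, read 9.11, 7.20 and 7.82 in Htr3a-KO and 7.50, 7.52 and 7.28 in control (0.61, adjusted p = 0.701, limma), so that 2 Htr3a-KO arrays stood above all controls and 1 below them. Npy, a peptide of neurogliaform and other interneurons, differed by −0.64, the opioid peptide gene Penk by −0.42 and Nos1, which makes nitric oxide, by −0.38. Of 13 markers of interneurons from the medial ganglionic eminence (MGE), another source, 0 passed and 11 were below 0 (59.9% of all genes), with a median of −0.17. The difference in the mean of these 13 was −0.29, and −0.16 without control array 1. Lhx6, their defining transcription factor, read 7.17, 8.18 and 8.03 in Htr3a-KO and 9.86, 8.57 and 8.44 in control (−1.16, adjusted p = 0.52). The groups were apart, with Htr3a-KO array 1 the lowest and control array 1 the highest. Nxph2, a neurexin ligand, differed by −1.11 and the peptide gene Sst by −0.45, both with overlap.

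Migration, guidance and survival genes gave values without calls in limma. Of 28 migration and cytoskeleton genes 0 passed and 4 were lower at an unadjusted p under 0.05 (5.44% of all genes), namely Tiam2, an activator of Rac (−0.73), the microtubule protein Dcx (−0.30), Srgap2, which shapes membrane protrusions (−0.31), and the tubulin Tubb3 (−0.36). Tiam2 read 7.87, 8.16 and 8.27 in Htr3a-KO and 8.46, 9.30 and 8.73 in control (adjusted p = 0.568). Of 35 other guidance genes 0 passed, with Cxcl12, the chemokine that guides migrating interneurons, at −0.54 (adjusted p = 0.604) and its scavenging receptor Ackr3 at −0.56. Cxcl12 read 9.59, 9.53 and 9.41 in Htr3a-KO and 10.20, 9.81 and 10.13 in control, without overlap.

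Of 18 cell death genes 0 passed and 4 were lower at an unadjusted p under 0.05 (5.44% of all genes). These were the survival factors Mcl1 (−0.43, adjusted p = 0.425, limma) and Bcl2l1 (−0.31), the cell cycle inhibitor Cdkn1a (−0.49) and the caspase gene Casp9 (−0.36). Mcl1 read 11.08, 11.15 and 11.18 in Htr3a-KO and 11.69, 11.63 and 11.38 in control. Its other probe sets differed by −0.50 to −0.10, none past the threshold, and most had overlapping arrays. Among 32 immediate early and stress genes 0 passed, 21 were above 0 and 11 below, against 59.9% of all genes below 0. The list's mean was 10.17, 9.78 and 9.86 in Htr3a-KO and 10.11, 9.98 and 9.64 in control, with overlap. Hspa1a, a heat shock protein gene, read 7.98, 8.10 and 7.16 in Htr3a-KO and 11.51, 10.37 and 7.50 in control (−2.05, adjusted p = 0.604), with control arrays 1 and 2 high and control array 3 at the Htr3a-KO level. Klf4, an early response gene, read 10.47, 10.16 and 10.37 in Htr3a-KO and 9.69, 9.70 and 9.68 in control (0.64, adjusted p = 0.649).

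Receptors, channels and synaptic genes gave few differences. In limma 0 passed of 9 GABA-A receptor subunits, 17 glutamate receptor subunits, 5 nicotinic subunits, 28 voltage-gated channels, 30 synapse genes and 23 cadherins and protocadherins, and their medians lay between −0.19 and 0.04. Cacna2d2, an auxiliary calcium channel subunit on chromosome 9, read 8.86, 8.74 and 9.01 in Htr3a-KO and 8.03, 7.81 and 8.03 in control (0.91, adjusted p = 0.586). It differed by 0.92 at E14.5 and 0.91 at E18.5 as well. Scn3b, a sodium channel subunit on chromosome 9 within 20 Mb of Htr3a, differed by −0.52 and the potassium channel gene Kcnj3 by −0.65, both without overlap. Gria1, an AMPA receptor subunit, differed by −0.73, the nicotinic subunits Chrnb2 by −0.29 and Chrna4 by −0.39, Slitrk3, an organiser of inhibitory synapses, by −0.31 and the cadherin Cdh7 by −0.29. Of 18 cholesterol synthesis genes 0 passed or reached an unadjusted p under 0.05. In the interferon and class I list of 15 genes H2-K1 alone reached it, on the higher side. Over all genes 0.035% passed, and 5.44% were lower and 2.14% higher at an unadjusted p under 0.05. With lists this short, such counts are close to those shares.

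**Figure D5:**
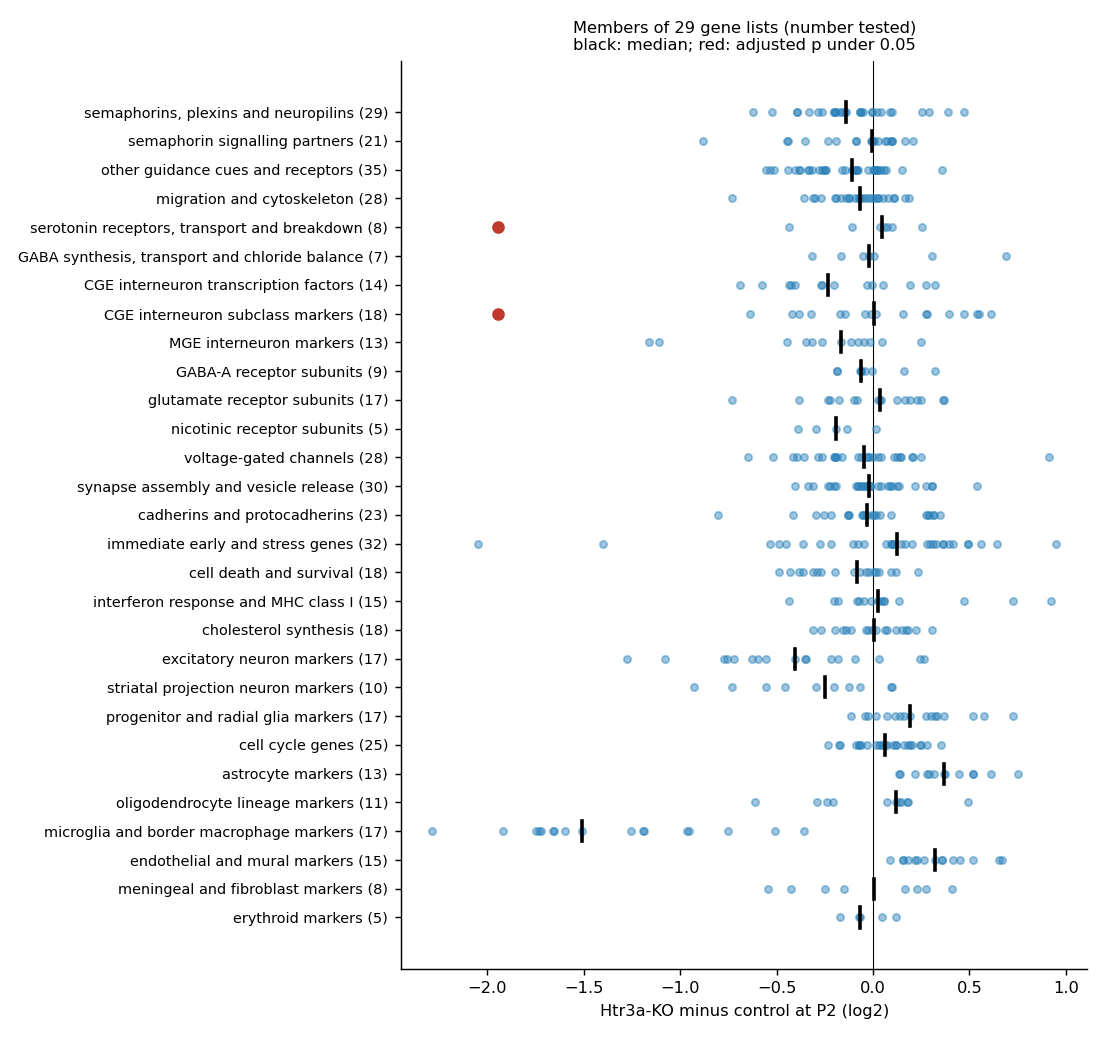
Htr3a-KO minus control at P2 (log2, horizontal axis) of each measured member of 29 gene lists, 1 list per row with the number of genes in brackets, members as blue points, the median as a black bar and members that passed in red. Htr3a is the only red point, in the 2 lists that hold it, and the microglia and border macrophage row lies wholly below 0 with a median of −1.51.

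The sorted cells held RNA of other cell types in both genotypes. Over the 6 arrays Gad1 was 11.19 to 11.79, the CGE factor Nr2f2 8.83 to 9.42 and the interneuron gene Reln 12.14 to 12.66. The oligodendrocyte lineage gene Olig1 was 13.15 to 13.65, the astrocyte and radial glia gene Slc1a3 10.76 to 11.90, the excitatory neuron gene Neurod6 8.91 to 11.33 and the proliferation gene Mki67 10.31 to 10.84. Correlations between arrays were 0.974 to 0.992 within a genotype and 0.961 to 0.994 between genotypes. Of the variance, 41.3% lay on the first principal component, which set Htr3a-KO array 1 and control array 1 at its ends. The second, with 35.6%, set Htr3a-KO array 1 and control arrays 1 and 2 (−12.6, −19.2 and −19.9) apart from the others. Those were Htr3a-KO arrays 2 and 3 and control array 3 (17.9, 14.9 and 19.0). It did not separate the genotypes, but its sides held unequal numbers of each. The endothelial gene Cldn5 read 8.36, 9.10 and 8.62 on the first side and 10.70, 10.34 and 10.43 on the other. The part of this component in the genotype differences was not tested. The 3′ to 5′ difference of Gapdh was 1.87 to 2.03 in Htr3a-KO and 1.77 to 2.20 in control, and that of actin 0.75 to 0.92 in Htr3a-KO and 0.90 to 1.22 in control. Htr3a-KO array 1 and control array 1 were left out together after their place on the first component was seen. Without them 0 genes passed at P2 and Htr3a differed by −2.02 (adjusted p = 0.126, limma).

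Of the 29 lists, microglia and border macrophage genes had the median farthest from 0. All 17 measured were below 0 (59.9% of all genes), with a median of −1.51 against −0.04 over all genes. At an unadjusted p under 0.05 there were 6 lower (5.44% of all genes), and 0 passed (limma). Mrc1, a scavenger receptor of border macrophages, read 5.88, 6.87 and 6.45 in Htr3a-KO and 9.99, 8.72 and 7.35 in control (−2.29, adjusted p = 0.483), and Pf4 read 6.14, 7.19 and 7.20 in Htr3a-KO and 9.50, 9.14 and 7.64 in control (adjusted p = 0.311). Lyz2, a lysozyme, differed by −1.19 and Tyrobp, a signalling adaptor of myeloid cells, by −1.51. The mean of the 17 genes was 6.77, 7.38 and 6.75 in Htr3a-KO and 9.75, 8.16 and 7.05 in control. Control array 1 was far above the others, control array 3 lay within the Htr3a-KO range, and the difference of −1.35 became −0.64 without control array 1. Among other results given above, Pik3cg, at 6.53, 5.87 and 5.74 in control, Hspa1a and Lhx6 were highest in control array 1 too. The part of microglia and macrophages in those values was not tested.

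Of 17 excitatory neuron markers 14 were below 0 (59.9% of all genes), with a median of −0.40 against −0.04 over all genes. At an unadjusted p under 0.05 there were 7 lower (5.44% of all genes), and 0 passed (limma). Eomes, a factor of intermediate progenitors, read 5.04, 5.80 and 5.91 in Htr3a-KO and 6.81, 7.23 and 6.54 in control (−1.28, adjusted p = 0.589). Eomes lies on chromosome 9, 69.6 Mb from Htr3a. Slc17a6, a vesicular glutamate transporter, differed by −0.76, Tbr1, a factor of deep layer neurons, by −1.08 and the proneural factor Neurog2 by −0.77. The list's mean was 7.77, 8.63 and 8.49 in Htr3a-KO and 8.77, 8.61 and 8.83 in control, and Htr3a-KO array 1 was the lowest. Without that array the difference of −0.44 became −0.17.

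Glial and vascular markers gave no call in limma. Of all genes 59.9% were below 0. All 13 astrocyte markers were above 0, with a median of 0.37, and Acsbg1, a fatty acid enzyme of astrocytes, had the smallest p (0.75, adjusted p = 0.642). Acsbg1 lies on chromosome 9, 5.71 Mb from Htr3a. The astrocyte mean was 11.04, 10.43 and 10.62 in Htr3a-KO and 9.93, 10.73 and 10.30 in control, so the groups overlapped and control array 1 was the lowest. The difference of 0.38 became 0.19 without that array. All 15 endothelial and mural markers were above 0, with a median of 0.32, led by Slco1c1, a thyroid hormone transporter of brain vessels (0.65, adjusted p = 0.657). Their mean was 7.25, 8.68 and 8.24 in Htr3a-KO and 7.55, 7.40 and 8.21 in control, with the lowest and the highest array both in Htr3a-KO. The difference of 0.34 became 0.74 without Htr3a-KO array 1 and 0.18 without control array 2. Of 17 progenitor markers 14 and of 25 cell cycle genes 17 were above 0, and 0 of either had an unadjusted p under 0.05 (7.58% of all genes). Of 11 oligodendrocyte lineage, 10 striatal, 8 meningeal and 5 erythroid markers 0 passed, with medians of 0.12, −0.25, 0.01 and −0.07.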

How the data were processed

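Per the labels and the design text, RNA of sorted interneurons was hybridised to Affymetrix Mouse Genome 430 2.0 arrays, and the authors normalised the signals by robust multi-array averaging (RMA) in Partek Genomic Suite. The deposited values are log2 intensities and were used as deposited. The comparison rule, gene lists and genes always named were chosen with earlier results of these data known.

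The array's annotation named 1 gene for 34945 of 45101 probe sets. Those in the lowest 30% by mean over the 18 arrays (under 5.255) were left out, and the brightest probe set stood for each of 14292 genes. limma 3.58.1 in R 4.3.3 fitted 1 mean for each of 6 groups over the 18 arrays, which share 1 estimate of the spread (12 residual degrees of freedom), with Benjamini-Hochberg adjustment over all genes. The threshold was an adjusted p under 0.05. The number of arrays, 3 per group, limits the precision. The fit was tested on simulated data. RefSeq's GRCm38.p6 table placed 14204 genes. The deposited values name no genome build.

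Named were Htr3a, Plxna4, Sema3a, Nrp1, Nrp2, Gad1, Gad2, all genes that passed, the next 12 by p in each direction, the 3 smallest p for each change between ages and up to 4 members per list by smallest p. Others given as examples were chosen after their values were seen. The alternatives were other filters, probe set rules, scalings and variance models, array weights, a replicate block, other thresholds, only the P2 arrays, and leaving out arrays.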

Additional observations from a re-analysis of the deposited data

Results flagged for a closer look

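Among the named genes, 6 had every Htr3a-KO array on one side of every control array at P2 and on the opposite side at an earlier age. All 6 were named for a small p at P2 or of the change between ages, a choice that favours such cases. Their number is therefore not comparable with the shares over all genes. Over all 14292 genes opposite sides were seen for 109 against E18.5 (0.763%) and 54 against E14.5 (0.378%). On the same side at both ages lay 185 and 100 genes. In each of the 6 cases the change itself was tested in limma and did not pass. Notum was higher in Htr3a-KO at P2 and lower at E18.5, a change of 0.71 (adjusted p = 0.644). Zfp946 was lower at P2 and higher at E18.5, a change of −0.72 (adjusted p = 0.644). Usp2 was higher at P2 and lower at E18.5, a change of 1.3 (adjusted p = 0.644). Pik3cg was lower at P2 and higher at E14.5, a change of −1.07 (adjusted p = 0.549). Pf4 was likewise lower at P2 and higher at E14.5, a change of −2.97 (adjusted p = 0.549), as was Mmp2, with a change of −1.20 (adjusted p = 0.549).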

How the results depend on the processing

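The 5 calls at P2 became 9 with every probe set on its own, 3 with quantile normalization (without Dis3l and H2-Aa), 3 with a trended variance (without Dis3l and Lars2), 8 with array weights, 0 with the replicate block and 0 with only the 6 P2 arrays. Leaving out 1 array gave 0 to 21 calls, namely 2 without Htr3a-KO array 2, 0 without Htr3a-KO array 3, 3 without control array 2 and 21 without control array 3, which held all 5. With Htr3a-KO array 1 and control array 1 both left out, chosen after seeing the data, 0 passed. Htr3a kept its sign under all alternatives, from −2.03 to −1.78. It missed the threshold at −1.94 with the replicate block (adjusted p = 0.0623) and with only the P2 arrays (adjusted p = 0.0542), at −1.88 without Htr3a-KO array 3 and at −2.02 without the pair of arrays. Deviations of same-numbered arrays from their group means correlated at −0.20, −0.54 and 0.30, and those of Htr3a-KO array 1 and control array 2 at 0.65. With 3 arrays per group such correlations cannot tell whether the numbers pair the arrays. Calls for the change from E18.5 stayed at 0 under every alternative, and those for the change from E14.5 ranged from 0 to 12 without 1 array, with 2 without P2 control array 3, 2 without E14.5 Htr3a-KO array 3 and 12 without E14.5 control array 3. Among genes that did not pass, signs turned for Gad1 with the mean of its probe sets (0.0917), quantile normalization (0.0198) and without Htr3a-KO array 2 (0.1583), control array 2 (0.0483) or control array 3 (0.0033), and for Gad2 with the mean of its probe sets (0.0183). They also turned for Nrp1 with array weights (0.1551), without Htr3a-KO array 1 (0.1517) and without the pair (0.295), for Nrp2 without control array 2 (0.065) and for Sema3a without the pair (0.155). Without 1 array or the pair, the differences spanned −0.63 to 0.155 for Sema3a, −0.4483 to 0.295 for Nrp1, −0.22 to 0.065 for Nrp2 and −0.24 to 0.1583 for Gad1. The cause of these changes was not tested. The median over all genes was −0.04 as deposited, −0.01 after quantile normalization and −0.06 after median centring. With 3 arrays per group, small differences could not be detected.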

Other observations

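Probe sets without a single annotated gene were tested together with the rest, 31530 probe sets in all, of which 5426 had no gene or several. Of these 5426, 2 passed in limma and both were lower in Htr3a-KO. Probe set 1459720_x_at read 5.83, 5.89 and 5.83 in Htr3a-KO and 7.80, 7.29 and 7.18 in control, a difference of −1.57 (adjusted p = 0.0041). Probe set 1458585_at read 7.26, 7.45 and 8.16 in Htr3a-KO and 9.13, 8.87 and 8.99 in control, a difference of −1.37 (adjusted p = 0.0273). The groups did not overlap for either.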
